A study of Mus musculus with 8 samples.

Results

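Neutrophils of mouse glioma were described cell by cell: 458 droplet barcodes, out of 11517 of the glioma library that passed the limits on depth and quality and 25598 in the glioma and control libraries together. They were picked by RNA content. A barcode needed at least 500 unique molecular identifiers (UMIs, each the tag of 1 captured RNA molecule), at least 300 genes and at most 10% mitochondrial UMIs. It also needed at least 50 UMIs of S100a8 and S100a9 per 10000 UMIs (CP10K), at least 3 UMIs in the sum of Retnlg, Cxcr2, G0s2, Hdc and Csf3r, and no UMI of Cd3d, Cd3e or Cd3g. The library came from CD45+ leukocytes that were magnetically sorted from tumours in the brains of glioma-bearing mice. The labels list 4 glioma samples and 4 samples of CD45+ cells from normal brain, which were not used here except for counts. Strain, age, tumour line and days of growth are not given in the sources used here. The 4 glioma samples form 1 matrix without a map from barcode to sample, so differences between animals could not be measured and no test was run; everything below describes the variation between cells of 1 pooled library.

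Neutrophils are short-lived granulocytes that are made in bone marrow and enter tissue from blood. While they mature they fill their granules in a fixed order, first with primary granule enzymes such as myeloperoxidase, then with secondary granule proteins such as lactoferrin, and last with gelatinases, and their mRNAs follow that order and then decay. In tumours, neutrophils that have left the blood can carry RNAs of chemokines, of hypoxia and of interferon responses, and neutrophils can aid or restrain tumour growth.

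The 458 barcodes were 3.98% of the glioma barcodes past the limits (exact 95% interval 3.63 to 4.35%; all intervals here are exact and central, at 95%, and cover counting error only). The whole glioma library held 159689787 UMIs and the barcodes described here 2482044, with 528 to 46173 per barcode, a median of 2688 and quartiles of 2048.25 and 7207.5. The median barcode had 950.5 genes and 0.863% mitochondrial UMIs. In the control library the same rule found 74 of 14081 barcodes, and 3 of the 458 barcode sequences were also cell barcodes there (48 over all glioma cells).

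Because S100a8, S100a9 and 5 further genes chose the barcodes, their levels are a description and support nothing. The level of S100a8 and S100a9 together ran from 50.8 to 3233 CP10K, with a median of 429 and quartiles of 192 and 894. At the edge of the rule, 10 barcodes lay at 50 to 60 CP10K and 13 lay just outside at 40 to 50, the nearest being 50.8 inside and 48.6 outside. Of the second markers, 6 barcodes had the required 3 UMIs and 5 others had 2. A further 50 barcodes failed only because they held a Cd3 UMI, 11 failed only on the second markers and 904 failed only on S100a8 and S100a9. Those 904 were deep (median 14978.5 UMIs) and held a median of 3.88% macrophage and MHC class II marker UMIs. Retnlg, Cxcr2, G0s2, Hdc and Csf3r count toward the limit as UMIs, so deep barcodes reach it more easily.

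The 4 markers given for these cells are all genes of the rule, so their levels describe the barcodes and are no check of the label. S100a8 and S100a9, the subunits of the calcium-binding protein calprotectin, were at 15575 and 26182 CPM (UMIs of a gene per 1000000 UMIs) in the sum of all 458, Retnlg, a resistin-like protein of neutrophils, at 3657, and Cxcr2, the chemokine receptor that draws neutrophils out of marrow and into tissue, at 524. In 7351 macrophage-rule barcodes of the library the same genes stood at 21.2 (S100a8), 21.2 (S100a9), 2.7 (Retnlg) and 3.7 CPM (Cxcr2). The macrophage rule itself required less than 50 CP10K of S100a8 and S100a9. The low S100 levels there (at most 47.3 CP10K) thus follow from the choice of barcodes. Among 1624 T-cell-rule barcodes, which should lack both S100 genes, 17.1% had an S100a8 or S100a9 UMI and 31 passed the S100 limit, at a median of 9045.5 UMIs. All 10 mast cell and basophil markers and all 5 erythroid markers were at 0 UMIs in the 458. T cell markers were found in 37 barcodes, NK cell markers in 9, B cell markers in 39, eosinophil markers in 28 (26 of them in cluster 2 below) and microglia markers in 101 (76 in cluster 2).

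Part of the 458 also held macrophage or monocyte marker RNA; whether such a droplet held 2 cells or 1 cell with this RNA cannot be told apart. Macrophage and MHC class II markers, among them C1qa (complement), Apoe (lipid transport) and H2-Ab1 (antigen presentation), made up more than 1% of the UMIs of 103 barcodes and reached 9.84%. In the free RNA of the library, read from 82518 barcodes of 5 to 100 UMIs, they made up 2.47%. To see the neutrophil RNA with little of this, 310 barcodes (67.7%) with at most 1% macrophage and MHC class II UMIs and at most 0.2% monocyte UMIs were also described alone. That limit was chosen after the values were seen: 43 barcodes held 0.5 to 1% and 19 held 1 to 1.5% macrophage and MHC class II UMIs. The 310 had a median of 2259 UMIs and of 631 CP10K of S100a8 and S100a9, and 2 were among the highest doublet scores of the library. The other 148 had a median of 9880 UMIs and 2.07% macrophage and MHC class II UMIs, and 51 had such a score. Per 1000 UMIs of S100a8 and S100a9, the 310 and the 148 respectively held 81.2 and 98.8 of Retnlg, 12.96 and 11.8 of Cxcr2, 24.7 and 23.9 of G0s2, an inhibitor of lipolysis, and 29.3 and 29.7 of Hdc, which makes histamine. All of these are genes of the rule, so the ratios describe the barcodes and are no check of what cells they held.

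**Figure D1:**
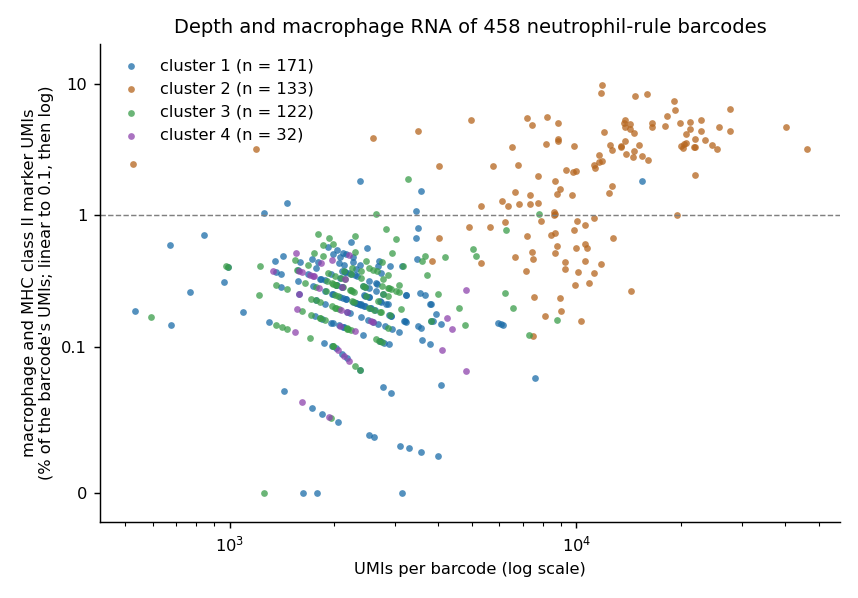
UMIs per barcode (log scale) against the share of macrophage and MHC class II marker UMIs for the 458 barcodes, coloured by cluster, with a dashed line at 1%. Clusters 1, 3 and 4 lie at medians of 2060.5 to 2355 UMIs and mostly under the line, and cluster 2 lies at a median of 10587 UMIs and 2.41%.

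RNAs of immature neutrophils were nearly missing. Of 11 primary granule and progenitor genes, 5 were at 0 UMIs in all 458 barcodes: Mpo, Elane and Ctsg, which encode myeloperoxidase, neutrophil elastase and cathepsin G, Fcnb (a ficolin) and Cd34 (a progenitor surface protein). A count of 0 allows up to 3 UMIs here, or 1.21 CPM, as a one-sided limit. Prtn3, which encodes proteinase 3, stood at 10.1 CPM and Kit, the stem cell factor receptor, at 13.3 CPM, while Srgn, the granule proteoglycan serglycin that mature cells keep making, stood at 8395 CPM. Cycling genes were low as well: in the 310 barcodes with little macrophage or monocyte RNA, Mki67 was at 6.2 CPM and Top2a, a topoisomerase of dividing cells, at 9.99 CPM.

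The 3 secondary granule RNAs that peak at the myelocyte stage, Camp (cathelicidin), Ltf (lactoferrin) and Ngp (neutrophilic granule protein), were held by very few cells. Together they gave 718 UMIs, and 41 of the 458 barcodes had any. One barcode of 15485 UMIs held 327 of them (44 Camp, 64 Ltf, 219 Ngp) beside 1.82% macrophage and MHC class II UMIs, and another of 7603 UMIs held 258 (49 Camp, 47 Ltf, 162 Ngp) with 0.0789%. Both had 0 UMIs of Mki67 and of Top2a, and Lcn2, the iron-siderophore binding lipocalin of the same granules, was at 98 and 141 UMIs in them. The barcode with the next most held 53. Both of these barcodes were in cluster 1, so sums of Camp, Ltf and Ngp over that cluster or over all 458 rest mainly on them; the set of 310 holds only the second.

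The 458 barcodes fell into 4 clusters when grouped by variable genes without the rule genes. Since clusters are cut from the same RNA that describes them, their genes are given without a test, and the clusters are called by number. Cluster 1 (171 barcodes) led in genes of the granules and of circulating neutrophils, cluster 3 (122) in interferon-response genes, cluster 4 (32) in genes of hypoxia and glycolysis, and cluster 2 (133) in macrophage and monocyte genes. The median level of S100a8 and S100a9 was 916 CP10K in cluster 1, 185 in cluster 2, 542 in cluster 3 and 369 in cluster 4, but in UMIs it was 200, 190, 126 and 67. At a coarser setting (Leiden resolution 0.3) clusters 1, 3 and 4 merged into 325 barcodes and cluster 2 stayed as it was, and at resolution 1 there were 7 clusters of 31 to 89.

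**Figure D2:**
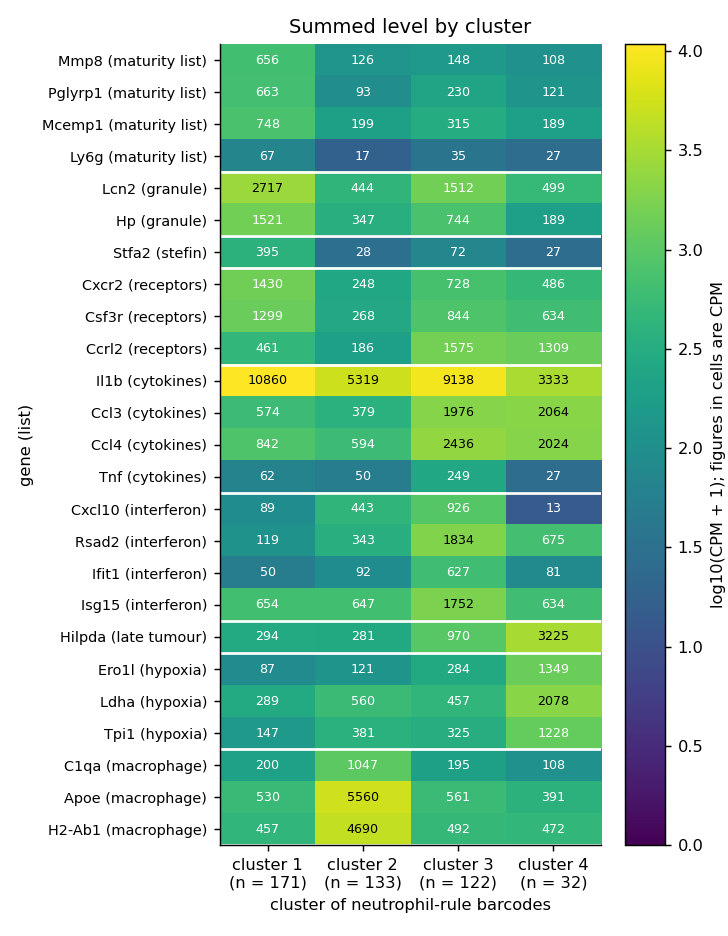
Summed level of 25 genes in the 4 clusters (columns, with the number of barcodes); colour shows log10 of CPM plus 1 and the printed figures are CPM, with the gene's list in brackets. Mmp8 and Lcn2 are highest in cluster 1 (656 and 2717), Rsad2 and Ifit1 in cluster 3 (1834 and 627), Hilpda and Ero1l in cluster 4 (3225 and 1349), and Apoe and H2-Ab1 in cluster 2 (5560 and 4690).

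Cluster 1 held the highest level of the late granule genes. Its leading genes by fold were Nlrp12, an inhibitory NOD-like receptor (138 CPM against 16.1 in the other barcodes), Pglyrp1 (a peptidoglycan-binding granule protein), Rdh12, Lrg1, Mmp8 and Mrgpra2b. Mmp8, the neutrophil collagenase, was at 656 CPM (interval 582 to 737) in cluster 1, 126 in cluster 2, 148 in cluster 3 and 108 in cluster 4. Lcn2 was at 2717 CPM (2564 to 2876) in cluster 1, 444 in cluster 2, 1512 in cluster 3 and 499 (352 to 688) in cluster 4. Hp, which encodes haptoglobin, was at 1521, 347, 744 and 189 CPM in the same order. Each of these 3 genes was thus lowest in cluster 4 or 2 and at its highest in cluster 1. Cxcr2 and Csf3r, the receptor for the growth factor G-CSF, are rule genes and followed the same order between clusters 1 and 3, with Cxcr2 at 1430 and 728 CPM and Csf3r at 1299 and 844 CPM. When each barcode was thinned at random to 1000 UMIs, to compare the clusters at equal depth, a Lcn2 UMI was found in 60.4% of cluster 1, 31.1% of cluster 2, 46.2% of cluster 3 and 37.5% of cluster 4, against 0.616% of T-cell-rule barcodes (76.0, 81.2, 63.1, 46.9 and 2.77% unthinned).

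The start regions of Lcn2 and Mmp8 are shown because these genes mark the granule-rich end of the range. Both hold TTGCNNAA, the core bound by C/EBP factors, which drive granule genes; it occurs on either strand in 12.2% of the 300-base start windows (250 bases before to 50 after the start site) of 27025 genes in RefSeq (GRCm38.p6), and in 4 of 11 secondary granule genes with a window (Ltf, Ngp, Lcn2 and Adam8). The capitals mark the matches, and each sequence reads 5′ to 3′ on the gene's strand. Lcn2 lies at chr2:32387923-32387980 (minus strand, match 208 bases before the start site) and Mmp8 at chr9:7558385-7558428 (plus strand, 11 bases before).
Lcn2: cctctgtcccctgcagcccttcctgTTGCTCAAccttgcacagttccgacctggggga
Mmp8: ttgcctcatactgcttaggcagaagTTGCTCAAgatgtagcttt
A match of letters is a description and was not measured as a binding site in these cells.

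Cluster 3 was led by Gm20186, Ifit1, Rsad2, Ddx58, Ccrl2 and Il1a. Rsad2 encodes viperin, Ifit1 a protein that binds viral RNA and Ddx58 the RNA sensor RIG-I, all classical targets of interferon. Rsad2 was at 1834 CPM (1688 to 1989) in cluster 3, 119 (89.1 to 156) in cluster 1, 343 in cluster 2 and 675 (501 to 889) in cluster 4. Ifit1 was at 627 CPM in cluster 3 and 50.5 to 92.5 in the other clusters, and Isg15, a ubiquitin-like modifier, at 1752 CPM against 634 to 654. Cxcl10, the interferon-induced chemokine that attracts T cells, was at 926 CPM in cluster 3, 443 in cluster 2, 89.5 in cluster 1 and 13.5 (1 UMI) in cluster 4. After thinning, a Rsad2 UMI was present in 43.7% of cluster 3 (34.6 to 53.1%), 31.2% of cluster 4, 19.7% of cluster 2 and 9.15% of cluster 1 (5.21 to 14.6%), against 1.85% of T-cell-rule barcodes (56.6, 40.6, 49.6, 19.3 and 9.05% unthinned). The sum of the 22 interferon-response genes had a median of 83.2 CP10K in cluster 3, with quartiles of 42.4 and 166 and a maximum of 897, so its barcodes spread widely. It was 39.7 in cluster 1, 30.7 in cluster 2 and 24.3 in cluster 4.

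The finer clustering divided most of cluster 3 between groups that differed in Rsad2 and Ifit1 and in Ccl3 and Ccl4. One of the 7 finer clusters, 59 barcodes that all came from cluster 3, was led by Ifit1, Ddx58, Rsad2, Gbp5, Herc6 and Isg20 and had Rsad2 at 2949 CPM (2677 to 3241) and Ifit1 at 1159 CPM. Another, of 72 barcodes with 56 from cluster 3 and 15 from cluster 1, was led by Il1a, Ccl3, Gm20186, Tnf, Ccl4 and Gm5483. It had Rsad2 at 834 CPM (709 to 974) and Ifit1 at 178. Cxcl10, both a chemokine and an interferon-response gene, was at 1797 CPM in the 59 and 168 in the 72. Ccl3 and Ccl4 went the other way: Ccl3 was at 2948 CPM (2709 to 3202) and Ccl4 at 3603 in the 72 barcodes, against 796 (657 to 954) and 1282 in the 59. Tnf, the inflammatory cytokine, stood at 315 and 171 CPM, and Il1a, an alarmin of the interleukin-1 family, at 336 and 144 CPM. Median depth was 2148.5 and 2251 UMIs and the macrophage and MHC class II share 0.252 and 0.280%, so the 2 groups were close in both.

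Start regions of 3 interferon-response genes that led or marked cluster 3 hold GAAANNGAAA, the core of the interferon-stimulated response element. On either strand it occurs in 3.99% of the 27025 start windows (1079 genes) and in 9 of the 18 interferon-response genes with a window: Isg15, Ifit1, Ifit3, Ifit3b, Rsad2, Cxcl10, Slfn5, Gbp2 and Gbp5. The capitals mark matches on either strand (as the reverse complement where the match is on the other strand), and overlapping matches run together in Isg15. Ifit1 is from chr19:34640760-34640819 (plus strand, 94 bases before the start site), Rsad2 from chr12:26456538-26456597 (minus strand, 110 bases before) and Isg15 from chr4:156200856-156200915 (minus strand, 62 bases before).
Ifit1: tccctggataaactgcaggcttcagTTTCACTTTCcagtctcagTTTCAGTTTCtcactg
Rsad2: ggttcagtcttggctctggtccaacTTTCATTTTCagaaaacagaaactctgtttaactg
Isg15: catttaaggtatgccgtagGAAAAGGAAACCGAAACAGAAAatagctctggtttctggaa
The interferon list was chosen for its known response, so its share with the motif says nothing about these cells in particular.

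Cluster 4 was small and held the highest level of the hypoxia genes. Its leading genes were Ero1l, an endoplasmic reticulum oxidase (1349 CPM against 137 in the other barcodes, 9.91-fold), Hilpda, a hypoxia-inducible lipid droplet protein (3225 against 374, 8.63-fold), Eea1, Sap18, Cited2, a hypoxia-induced inhibitor of HIF-dependent transcription, and Upp1. The glycolysis genes followed. Ldha, which makes lactate from pyruvate, was at 2078 CPM (1763 to 2433) in cluster 4, 457 (386 to 538) in cluster 3, 560 in cluster 2 and 289 in cluster 1. Hk2, an enzyme of the first step of glycolysis, was at 594 CPM in cluster 4 and 59.7 to 123 elsewhere. Tpi1, an enzyme further down the same path, was at 1228 against 147 to 381 CPM, and the glucose transporter Slc2a1 at 661 against 140 to 224. Bnip3, a mitophagy receptor, was at 472 CPM against 62.0 to 104.

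Cluster 4 also carried the most ferritin RNA of clusters 1, 3 and 4. Fth1 and Ftl1, the ferritin subunits, stood at 83023 and 15517 CPM in cluster 4, 60186 and 8927 in cluster 3, and 33753 and 6358 in cluster 1. Cstb, a cathepsin inhibitor, was at 2968 CPM in cluster 4 and 441 in cluster 1, and Plin2, which coats lipid droplets, at 1970 and 587 CPM. Il1b, which encodes interleukin-1 beta, was lower in cluster 4 (3333 CPM, 2930 to 3775) than in cluster 1 (10860) or cluster 3 (9138). After thinning, a Hilpda UMI was present in 75% of cluster 4 (56.6 to 88.5%), 38.7% of cluster 3, 17.4% of cluster 2 and 18.3% of cluster 1, against 7.15% of T-cell-rule barcodes (81.2, 47.5, 63.2, 27.5 and 37.8% unthinned). The 32 barcodes had a median of 2060.5 UMIs and of 0.192% macrophage and MHC class II UMIs, and none had a high doublet score.

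Both Hilpda and Ldha have ACGTG, the core of the hypoxia response element, in their start windows. These letters are common: they occur on either strand in 21.8% of the 27025 windows, and in 11 of 16 hypoxia and glycolysis genes with a window (68.8%). A GC-rich pattern, GGGNNNNNCC, was also more frequent in this list (87.5%) than in all windows (53.5%). Hilpda itself is on the late tumour list, in which 4 of 9 genes with a window (44.4%) hold ACGTG. The lists were chosen by what is known of their genes, so these shares say nothing about these cells in particular. As for the other motifs, the matches were not measured as binding sites. Ldha is from chr7:46845731-46845785 (plus strand, match 43 bases before the start site), where a CACGTG holds the core on both strands, and Hilpda from chr6:29272558-29272612 (plus strand, 38 bases before).
Ldha: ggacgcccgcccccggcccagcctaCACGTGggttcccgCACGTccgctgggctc
Hilpda: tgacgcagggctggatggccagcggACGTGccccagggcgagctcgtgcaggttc

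**Figure D3:**
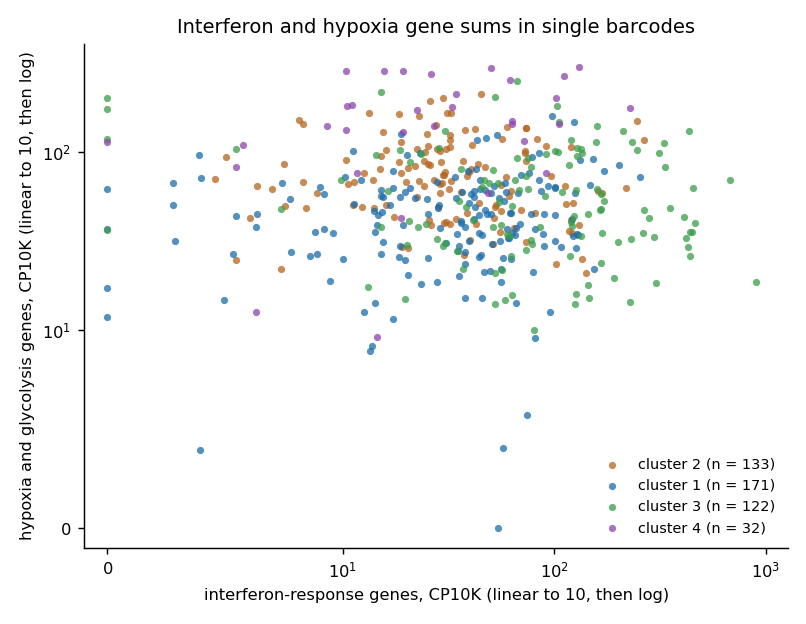
Summed interferon-response genes (x) against summed hypoxia and glycolysis genes (y) in each of the 458 barcodes, in CP10K on axes that are linear to 10 and logarithmic above, coloured by cluster. Cluster 3 reaches the highest interferon sums (maximum 897) and cluster 4 has the highest median hypoxia sum (146, against 43.9 in cluster 1).

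Cluster 2 was the deep part of the 458. Its leading genes were Ocstamp (96 UMIs against 0 in the other barcodes), Rasgrp1, Hfe, Ext1, Ass1 and Vcan, and C1qa was at 1047 CPM, Apoe at 5560 and Plac8 at 1961, against at most 200, 561 and 334 in the other clusters. Of its 133 barcodes, 53 (39.8%) had a high doublet score, against 0 in the other 3 clusters. The finer clustering divided it into 74 barcodes led by H2-DMb2, Klrb1b, Arg1, C1qb, H2-Oa and Trem2 (macrophage and MHC class II median 3.67%, 13828 UMIs) and 59 led by Ace, Vcan, S100a4, Chil3, Plac8 and Grk3 (0.884%, 8781 UMIs). The leading genes are known from macrophages and antigen-presenting cells in the first group and from monocytes in the second. Arg1, the arginine-degrading enzyme often named for suppressive myeloid cells, was at 342 CPM in cluster 2 and 29.8 to 54.0 in clusters 1, 3 and 4: 566 of its 593 UMIs were in cluster 2.

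Inflammatory cytokine RNAs were present in all 4 clusters. Il1b was found in 98.9% of the 458 barcodes (94.9% after thinning, against 21.9% of T-cell-rule barcodes), at 6721 CPM. Cxcl2, the ligand of Cxcr2 that recruits further neutrophils, was at 6298 CPM and in 92.8% of barcodes (85.2% thinned, T-cell-rule 9.12%). Its level was 10512 CPM in cluster 1, 3455 in cluster 2, 13445 in cluster 3 and 14384 in cluster 4. Ccl3 and Ccl4, chemokines that attract leukocytes, were higher in clusters 3 and 4 (Ccl3 1976 and 2064, Ccl4 2436 and 2024 CPM) than in cluster 1 (574 and 842). Nfkbia, the inhibitor that NF-kB induces against itself, followed the chemokines with 4474 CPM in cluster 3, 5330 in cluster 4 and 1957 in cluster 1. Cd274, which encodes the checkpoint ligand PD-L1, was at 942 CPM in cluster 3, 1282 in cluster 4 and 250 in cluster 1.

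Of 12 cytokine and chemokine genes with a start window, 3 (Cxcl1, Cxcl2 and Cxcl3) hold GGGANTTTCC, a form of the NF-kB motif. It occurs on either strand in 0.466% of the 27025 windows. Nfkbia is the only 1 of 14 AP-1 and NF-kB feedback genes with a window (7.14%) that holds it. The lists were chosen by known function, so these shares say nothing about these cells in particular. The matches were not measured as binding sites. Cxcl2 is from chr5:90903777-90903836 (plus strand, 87 bases before the start site) and Nfkbia from chr12:55492648-55492701 (minus strand, 19 bases before, match on the other strand).
Cxcl2: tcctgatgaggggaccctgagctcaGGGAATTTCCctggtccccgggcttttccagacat
Nfkbia: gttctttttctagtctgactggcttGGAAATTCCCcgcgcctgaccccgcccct

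The maturation range was then read as an order. Each barcode with at least 1000 UMIs was thinned to 1000, and barcodes were ordered by the UMIs of 13 genes known from late bone marrow and blood neutrophils, among them Mmp8, Mmp9, Mcemp1, Pglyrp1, Wfdc21, Ifitm6, Anxa1, Mgst1, Prok2, Ly6g, Padi4 and Itgb2l. The order is a ranking by these RNAs and no measure of age. Of all 458 barcodes, 447 could be ordered, with a median of 2 UMIs of the 13 genes, a maximum of 16 and 95 barcodes at 0. Of the 310 with little macrophage or monocyte RNA, 300 could be ordered, with a median of 3, a maximum of 21 and 40 at 0. Barcodes were cut into 3 tertiles of equal size, with ties settled by the unthinned level. The order was coarse: in the 300, 60 barcodes had 1 UMI at the border of the low and middle tertiles and 31 had 4 at the border of the middle and high tertiles.

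Among all 447, the tertiles differed in depth and macrophage RNA as well. The low tertile had a median of 6638 UMIs, 66 of 149 barcodes over 1% macrophage and MHC class II UMIs and 37 high doublet scores, and the high tertile 2560 UMIs, 7 and 1. Of 6160 genes with at least 20 UMIs over the high and low tertiles, 471 (7.65%) were at least 2-fold higher in the high tertile and 1730 (28.1%) at least 2-fold lower, with a median log2 ratio of -0.38. All 7 measured MHC class II genes and 10 of 12 macrophage genes were at least 2-fold lower there (medians of -2.54 and -1.79), as were Ccl17, a dendritic cell chemokine (-5.04), Arg1 (-3.77), Ccl2 (-3.30) and Mgl2 (-3.06). In the 300 barcodes with little such RNA the tertiles were closer in depth (medians of 2156, 2184 and 2597.5 UMIs) and in macrophage and MHC class II share (0.281, 0.260 and 0.2%). Their median level of S100a8 and S100a9, which are rule genes, still differed, at 355, 601 and 1012 CP10K. Of 2710 genes, 124 (4.58%) were at least 2-fold higher and 350 (12.9%) at least 2-fold lower, with a median of -0.16. Both sets shared 76 of the higher genes (of 471 and 124) and 155 of the lower (of 1730 and 350). The results below are for the 300 unless stated, with log2 ratios of the high over the low tertile.

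Granule genes other than those of the order were higher in the high tertile. Of 12 secondary granule genes measured, 8 were at least 2-fold higher and 0 at least 2-fold lower, beside 4.58% and 12.9% of all genes, with a list median of 1.37 (2.61 in all 447). Lcn2 was at 706, 1484 and 3380 CPM in the low, middle and high tertile, a log2 ratio of 2.26 (2.03 to 2.50). Hp was at 549, 1084 and 1636 CPM (1.57, 1.30 to 1.86). Each step of the order was thus higher for both genes. Without the barcode of 7603 UMIs rich in Camp, Ltf and Ngp, the only such barcode among the 300, the list median was 0.81 and Lcn2 was at 1.91. The ratio of Ngp (6.90) rested on 1 barcode with 162 of its 191 UMIs and was 4.05 without it; Ltf (4.28) and Camp (0 UMIs in the low tertile) rested on the same barcode.

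Stefins are small inhibitors of cysteine proteases encoded in a cluster of near-identical genes. Reads of such copies could have been divided between them in counting, so single genes are uncertain. Of 7 measured, 4 were at least 2-fold higher and 0 lower (median 1.64; 2.90 in all 447), beside 4.58% of all genes higher. The summed list had per-barcode medians of 26.5, 26.1 and 32.0 CP10K in the low, middle and high tertile, so the median barcode differed less than the sums did. Stfa1 was at 263, 249 and 823 CPM over the tertiles (log2 ratio 1.64), Stfa2 at 103, 59.4 and 334 (1.68) and BC100530 at 72.5, 146 and 701 (3.24). The first 2 stood apart in the high tertile only, while Gm5483, of the same cluster, was level at 2639, 2604 and 2596 CPM (-0.02, -0.18 to 0.13). In the 310, the highest 3 barcodes held 61.0% of the BC100530 UMIs, 37.8% of the Stfa2 UMIs and 26.2% of the Stfa1 UMIs. Other genes with the largest ratios were Pygl, which releases glucose from glycogen (1.88), Lrg1, a secreted glycoprotein (1.56), Taldo1 of the pentose phosphate path (1.54) and Crispld2 (1.52).

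Receptors differed among themselves. Of 10 chemoattractant receptors, 0 were at least 2-fold higher and 2 at least 2-fold lower in the high tertile (median -0.38), whereas in all 447 the median was 1.01 with 5 higher and 1 lower. A count of 2 of 10 is near the 12.9% of all genes that were lower. Ccrl2, which binds chemerin, was at 1236, 974 and 532 CPM over the tertiles (-1.21, -1.51 to -0.93). C3ar1, a receptor for complement C3a, was at 68.7, 11.9 and 7.19 CPM (-2.97). Those C3ar1 levels rest on few UMIs and all lie under the 92.1 CPM of C3ar1 in the free RNA, so its ratio is uncertain. Fpr1, a receptor for bacterial formyl peptides, and C5ar1, for complement C5a, had intervals that included 0 (0.29, -0.39 to 0.997, and 0.05, -0.33 to 0.43). Cxcr4, which holds neutrophils in the marrow and is known to be higher in aged ones, was at 278, 218 and 173 CPM (-0.69, -1.25 to -0.15). Of 8 adhesion molecules measured, 1 was at least 2-fold lower, also near that share: Icam1, at 278, 253 and 111 CPM (-1.31).

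Cytokines differed within their own list. Of 13 measured, 0 were at least 2-fold higher and 5 at least 2-fold lower in the high tertile (median -0.51; 0.57 in all 447, with 2 higher and 2 lower), beside 12.9% of all genes lower and a median of -0.16. Ccl4 was at 2338, 2113 and 432 CPM over the tertiles, a log2 ratio of -2.43 (-2.73 to -2.15; -0.29 in all 447). Ccl3 was at 1865, 1318 and 618 CPM (-1.59, -1.85 to -1.34; -0.16 in all 447). The difference in Ccl4 lay between the middle and the high tertile. Ccl4 was concentrated, however: in the 310, 121 barcodes had any and 3 barcodes held 24.7% of its 1280 UMIs. Il1rn, the natural antagonist of the interleukin-1 receptor, was lower in the high tertile (-1.28), as were Il1a (-1.29) and Ccl9 (-1.92). Il1b was not: it was at 7784, 10781 and 10248 CPM (0.40, 0.31 to 0.48). Cxcl2, at 13352, 12566 and 9745 CPM, had a ratio of -0.45 (0.77 in all 447).

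**Figure D4:**
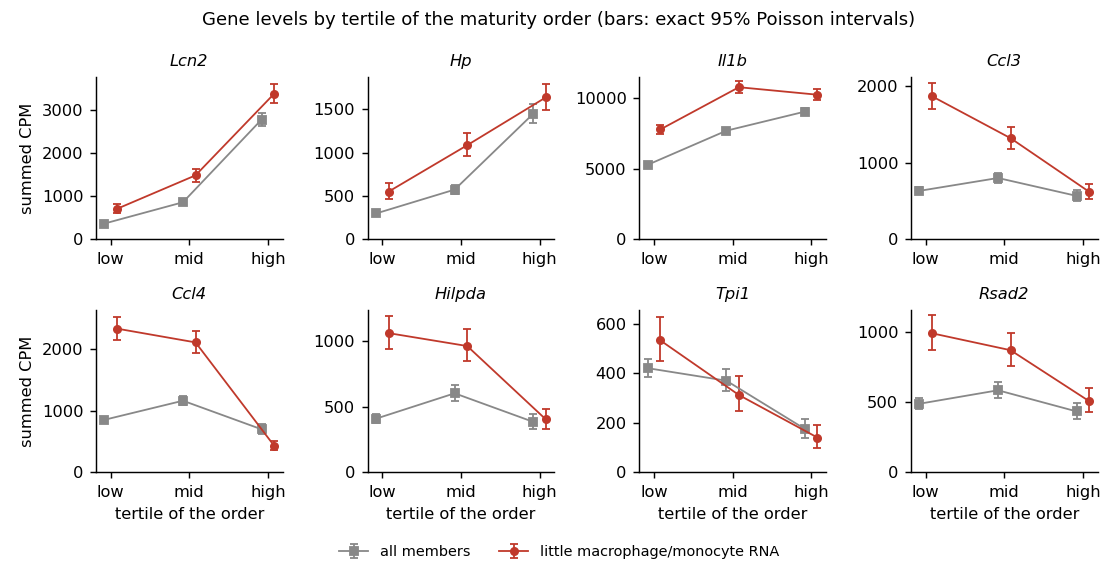
Summed CPM of 8 genes in the low, middle and high tertile of the order, for all 447 ordered barcodes (grey squares) and the 300 with little macrophage or monocyte RNA (red circles), with exact 95% Poisson intervals. The titles of this and the next picture say maturity order, but the order ranks RNA and does not measure maturity. Lcn2 and Hp are higher at each step in both sets, whereas Ccl3, Ccl4 and Hilpda are lowest in the high tertile of the 300 (618, 432 and 403 CPM) and differ little across the tertiles of all 447.

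Some genes reported for neutrophils that have stayed in tumours, and some of hypoxia, were at least 2-fold lower in the high tertile, while most lay within 2-fold. Of 13 late tumour genes measured, 0 were at least 2-fold higher, 4 at least 2-fold lower and 9 between (median -0.81). Of 17 hypoxia and glycolysis genes 0 were higher, 5 lower and 12 between (median -0.70). Among all genes 12.9% were lower and the median was -0.16. In all 447 the list medians were -0.30 and -0.62, beside -0.38 for all genes. Hilpda was at 1060, 962 and 403 CPM (-1.39, -1.73 to -1.08; -0.09 in all 447). Hmox1, the haem oxygenase, was at 473, 281 and 151 CPM (-1.64; -0.92 in all 447), and Spp1, osteopontin, at 458, 503 and 147 (-1.62). Spp1 was concentrated: 3 barcodes held 39.8% of its 289 UMIs in the 310. Tpi1 was at 534, 313 and 140 CPM (-1.92, -2.48 to -1.41; -1.26 in all 447), Ero1l at 496, 202 and 137 (-1.85; -0.65) and Hk2 at 244, 135 and 36.0 (-2.70; -1.23). Cd274 was at 789, 673 and 417 CPM (-0.92, -1.26 to -0.59). Siglecf, a surface lectin reported on long-lived tumour neutrophils, was at 9.99 CPM in the 310 (8 UMIs), too few to read.

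Early-response genes were mixed. Of 17 AP-1 and NF-kB feedback genes, 3 were at least 2-fold lower in the high tertile and 0 higher (median -0.37; 0.36 in all 447), near the 12.9% of all genes that were lower. Those were Atf3, a stress-induced repressor (519, 356 and 173 CPM, -1.58), Fosb (-1.36) and Tnfaip3, the NF-kB inhibitor A20 (-1.18). Gadd45b, a stress gene of the survival list, was at 1762, 1310 and 741 CPM (-1.25). Of 16 transcription factors, 1 was at least 2-fold lower and 0 higher (median -0.11), and Spi1, which encodes the myeloid factor PU.1, was at 492, 665 and 841 CPM (0.77, 0.46 to 1.10).

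Interferon-response genes lay within 2-fold along the order. Of 20 measured, 0 were at least 2-fold higher and 0 at least 2-fold lower, and the median was 0.02 (0.31 in all 447). Rsad2 was at 992, 871 and 507 CPM (-0.97, -1.27 to -0.67) and Ifit1 at 359, 277 and 187 (-0.93), while Cxcl10 was at 427, 507 and 453 (0.08, -0.29 to 0.47). Those 3 genes thus differed among themselves, but 3 barcodes held 33.9% of the 366 Cxcl10 UMIs in the 310. All 6 NADPH oxidase genes lay within 2-fold (median 0.31), and of 9 suppressive mediators measured 2 were at least 2-fold lower and 0 higher (median -0.06), beside 12.9% of all genes lower. Ptgs2, which makes prostaglandins, was at 748, 574 and 557 CPM (-0.42). Arg1 was at 87.4 CPM in the 310, with 70 UMIs of which 1 barcode held 45. The series title names Nr4a2, an orphan nuclear receptor: it gave 195 UMIs in the 458, 175 of them in cluster 2, and 25 in the 310 (31.2 CPM, 20.2 to 46.1), beside 94.8 CPM in macrophage-rule and 78.7 in T-cell-rule barcodes.

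**Figure D5:**
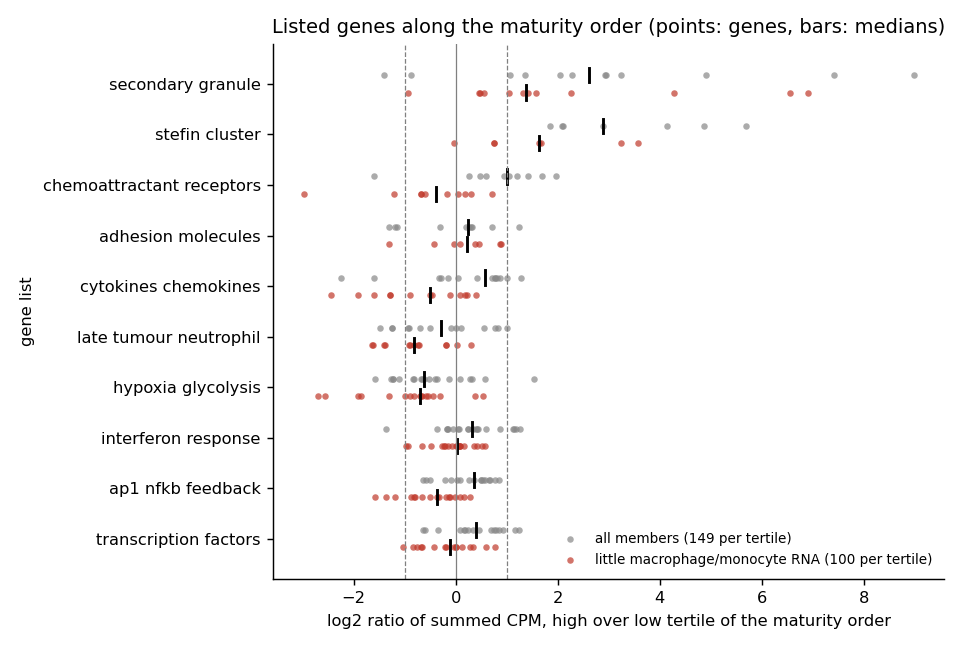
Log2 ratio of summed CPM (high over low tertile) for each measured gene (points) of 10 lists, with list medians as black bars, for all 447 ordered barcodes (grey) and the 300 with little macrophage or monocyte RNA (red); dashed lines mark 2-fold. The medians of the secondary granule and stefin genes lie to the right in both sets (2.61 and 1.37, and 2.90 and 1.64). In the 300 some genes of both lists lie within the 2-fold lines. The median of the chemoattractant receptors is 1.01 in all 447 and -0.38 in the 300.

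The clusters were spread unevenly over the order. In the 300, cluster 1 had 28, 50 and 75 barcodes in the low, middle and high tertile, cluster 3 had 45, 42 and 23, and cluster 4 had 22, 7 and 2. Cluster 2 had 5, 1 and 0. Cluster 4 was thus mostly in the low tertile, while cluster 3 was found in each. The clustering left out the rule genes but not the 13 order genes, and Mmp8 and Pglyrp1 were among the leading genes of cluster 1. Clusters and order can thus share genes, so the uneven spread is a description and supports neither. Across the 300 barcodes, all thinned to 1000 UMIs and from the same library, Spearman's rho between the 13 order genes and the secondary granule genes was 0.44, and with the late tumour genes it was -0.35. It was -0.29 with the AP-1 and NF-kB feedback genes and -0.23 with the chemoattractant receptors. It was 0.06 with the stefins, -0.14 with the hypoxia genes, -0.11 with the cytokines and -0.08 with the interferon-response genes, and 0.07 between the interferon-response and hypoxia genes. None of these values was tested, and all rest on sums with medians of 3 to 28 UMIs per barcode. The last 5 are too weak to be read as a relation.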

How the data were processed

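CD45+ cells of 4 glioma samples were measured by droplet single-cell RNA sequencing and form 1 matrix. The authors deposited raw counts, the number of UMIs of each of 31053 genes at each of 6794880 barcodes, without a filter for cells; per the submitters' processing notes, Cell Ranger 3.0.2, STAR and Seurat 3 were used with the builds GRCh38 and mm10. Levels are UMIs summed over barcodes and divided by the summed total (CPM), so a rise of abundant RNAs lowers the share of all others. Intervals are exact: Poisson for CPM, Clopper-Pearson for shares and conditional binomial for ratios, with 0.5 UMIs added to each sum for log2 ratios. No test was run, because the library is 1 sample and its barcodes are no replicates. UMIs are few per barcode, so a gene that was not seen in a barcode may be present below detection.

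One gene of the order list is not reported here. Members and gene lists were chosen with earlier results of these data known. Clusters came from scanpy 1.11.5 (1000 variable genes, 20 components, 15 neighbours, Leiden resolution 0.5). Scrublet's automatic threshold marked 0% of barcodes, so the 1061 highest scores of the library (0.8% per 1000 barcodes) are called high here and were not removed. Genes named are those of the lists, the 12 largest ratios in each direction (at least 100 UMIs, in at least 10% of barcodes of the higher tertile) and, per cluster, the 6 largest folds (at least 50 UMIs, in at least 25% of its barcodes). Macrophage-rule and T-cell-rule barcodes needed at least 3 UMIs of their markers. Macrophage-rule barcodes also needed no Cd3 UMI and less than 50 CP10K of S100a8 and S100a9. Reads of overlapping or near-identical genes could be split by the counting. The order and its intervals were tried on simulated counts, drawn from the mean profile of all members with a simulated order unrelated to depth. Those counts had no droplets of mixed cells and no genes held by few barcodes, so the trial says nothing about either. The alternatives tried were other limits of the rule, thinning depth, parts of the order list, a minimum of UMIs per gene, means over barcodes and the removal of barcodes with other RNA.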

Additional observations from a re-analysis of the deposited data

How the results depend on the processing

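The number of barcodes ranged from 415 to 494 under 6 other limits of the rule. The counts of genes depended most on macrophage RNA, doublet scores and the minimum of UMIs. Against 471 genes at least 2-fold higher in the high tertile of all ordered barcodes, there were 310 with a split at the median, 272 with odd-numbered order genes, 150 without barcodes over 1% macrophage and MHC class II UMIs, 232 without high doublet scores, 211 at 100 UMIs per gene and 1476 without a minimum. There were 124 in the set with little macrophage or monocyte RNA, 139 in it without its 1 granule-rich barcode and 185 in clusters 1, 3 and 4 alone. Against 1730 genes at least 2-fold lower, the same settings except the median split gave 1021, 574, 773, 484, 3478, 350, 362 and 262. The last 3 settings of each series and the removal of that barcode were chosen after seeing the data. The list median of the chemoattractant receptors was 1.01 in all barcodes but -0.38 in the set with little macrophage RNA, -0.21 in it without that barcode and -0.21 in clusters 1, 3 and 4, where the cell cycle median was 0.42 in place of -1.47. The cause was not tested. Clusters numbered 2 at resolution 0.3 and 7 at resolution 1, against 4. None of the 37 genes recomputed went from a 2-fold ratio to the opposite sign, but many ratios changed in size. In the set with little macrophage or monocyte RNA, 31 were classed as moved and 3 as the same. With even-numbered order genes 19 moved and 18 were the same, and with odd-numbered ones 21 and 16. At 100 UMIs per gene all 37 were the same. No paired analysis was possible because barcodes carry no sample. Depth limits genes under about 20 UMIs per set, such as Siglecf, and the order itself, which rests on a median of 2 or 3 UMIs per barcode.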
